A study of Mus musculus with 16 samples.

Results

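The genes described here are 84 of the 17721 gene rows of a single-cell table of unique molecular identifier (UMI) counts. They are the rows whose symbol begins with Rpl or Rps and a digit, together with Rplp0, Rplp1, Rplp2 and Rpsa, without rows named as pseudogenes (ending in -ps and a number) and without the Rps6k kinases. The rule reads symbols only and uses no measured value. It also takes in Rps19bp1, which encodes a protein that binds Rps19, and Rpl7l1, a nucleolar relative of Rpl7, neither of which is a structural protein of the mature cytosolic ribosome.

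The cells came from fragments of the mouse mammary gland dissected by location: 4 nipple, 6 duct and 6 terminal end bud (TEB) fragments, a TEB being the growing tip of a duct at puberty. For all 16 fragments the labels give C57BL/6. The study's legends describe mice of 5 weeks that carry K14-Cre, which acts in keratin 14 expressing epithelium and the cells it gives rise to, and the Cre reporter R26-mTmG, while its dissection methods give an age of 5 to 6 weeks and allow wild-type C57BL/6 mice as well, so the genotype of each fragment is not known here. No group received a treatment, and the labels do not say which fragments share a mouse. Single cells were sorted by flow cytometry into wells of 96-well plates that held lysis buffer and ERCC spike-in RNA, and only the 3′ ends of transcripts were sequenced. Fragments are named here by location and by the number that their labels give them.

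Ribosomal proteins assemble with ribosomal RNA in the nucleolus and cytoplasm into the small subunit (Rps proteins), which reads the mRNA, and the large subunit (Rpl proteins), which joins amino acids. Most are needed in equal numbers, and their mRNAs are among the most abundant in growing cells. Most of these mRNAs begin with a run of pyrimidines, the 5′ terminal oligopyrimidine (TOP) tract, through which mTOR signalling and LARP1 control their translation and stability.

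In the promoter windows of RefSeq for GRCm38.p6, which matched 63 of the 84 genes by symbol, a pyrimidine tract near the listed start was present in 58 of 75 windows (77.3%), against 9296 of 32851 windows (28.3%) of all genes. A tract was a C followed by at least 7 letters that are each C or T, read on the gene's own strand and starting within 50 bases of the listed transcription start. The tract is a match of letters, not a measured start of an mRNA. The sequences below show, 5′ to 3′ on the gene's strand, the 30 bases around the tract for genes on which later results turn, with the tract in capitals.
Rpl37 (chr15:5116631-5116660, plus strand): ggcgggggtgCTTTCTCTTCCggtctcttt
Rps23 (chr13:90923142-90923171, plus strand): tgggtccttcctgcaCCTCCTCTCTCTTTC
Rpl41 (chr10:128549119-128549148, minus strand): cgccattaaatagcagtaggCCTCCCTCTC
Rpl37a (chr1:72711275-72711304, plus strand): gcattgcgtCCCTTCCTCTTCggacttggg
Rps6 (chr4:86857349-86857378, minus strand): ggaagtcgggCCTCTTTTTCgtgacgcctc
Rpl35 (chr2:39005115-39005144, minus strand): gccccgCCCTTTCCTCTTTCTCTCgaacca
Rps12 (chr10:23787182-23787211, minus strand): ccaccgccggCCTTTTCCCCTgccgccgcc
Rpl22l1 (chr3:28805500-28805529, plus strand): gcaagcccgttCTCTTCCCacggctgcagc
Rps27l (chr9:66946053-66946082, plus strand): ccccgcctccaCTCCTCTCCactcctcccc
Rpl36al (chr12:69184020-69184049, minus strand): gctctgttcgtCCCTTTCCTgttcggcgcg

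No tract of this definition lay in the windows of Rps28, Rps13, Rps19bp1 and Rpl7l1, shown here by the 30 bases around the listed start because the genes also return in later results. Rps29 and Rplp1 are named without a sequence.
Rps28 (chr17:33824548-33824577, minus strand): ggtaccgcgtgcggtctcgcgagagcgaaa
Rps13 (chr7:116334176-116334205, minus strand): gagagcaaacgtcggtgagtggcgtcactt
Rps19bp1 (chr15:80264292-80264321, minus strand): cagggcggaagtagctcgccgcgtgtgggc
Rpl7l1 (chr17:46782642-46782671, minus strand): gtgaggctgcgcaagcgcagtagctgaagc

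Of 1419 deposited cells, 1318 were kept (342 nipple, 501 duct and 475 TEB), and each fragment held 83 to 93 deposited cells and 1856141 to 5233122 UMIs, of which 0.62% to 1.09% were spike-in. All 95 well barcodes occurred in more than 1 fragment, as a plate layout gives, and no doublet caller was run because each well received 1 sorted cell. Cell classes were rebuilt by clustering without the ribosomal protein genes and named from marker genes: 294 basal-like, 429 ER+ luminal-like (oestrogen receptor positive), 178 ER- luminal-like, 252 fibroblast-like and 78 myeloid-like cells. A class from different locations could hold different clusters: basal-like cells of nipple and duct lay in 1 cluster (96 nipple, 115 duct and 1 TEB cell, median 22297 UMIs per cell) and those of TEB in another (1 nipple, 0 duct and 81 TEB cells, median 44192.5 UMIs). In duct fragments 61 and 62 the cells were deeper than in the other 4 duct fragments, with median UMIs of 37640 and 33113 in basal-like cells against 17205 to 23954. All values below are over fragments with at least 5 cells of the class, and p-values measure the spread between fragments, some of which may come from the same mouse.

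The 84 genes took 14.5% of the 46647969 UMIs of all kept cells. By UMI count small proteins led: Rps29, a zinc-binding protein of the small subunit, had 194153 UMIs (2.86% of all UMIs of these genes), Rpl41, the smallest protein of the ribosome, had 159322 (2.35%), and Rps26, which lies at the mRNA exit of the small subunit, had 155976. With 3′ end counting each transcript gives UMIs from its end only, so these counts were not divided by length. Each of 76 of the 84 genes had a UMI in 97% or more of the kept cells. At the other end, 5 genes had under 1000 UMIs over all deposited cells and passed no filter on low counts in the epithelial classes: Rpl3l with 12, Rpl30 with 31, Rps27 with 113, Rpl34 with 320 and Rpl39l with 671. The remaining 79 genes were tested in each epithelial class and 80 in fibroblast-like cells.

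How far a row can be read as 1 gene differs between members, because ribosomal protein genes have many processed copies and only reads with a single alignment were counted. Over the last 300 bases of the transcripts, a median of 50% of the 50-base stretches of 83 located genes occurred also in another annotated gene, and in 42 genes this share was 50% or more. Rpl30, a large-subunit protein, shared 79.3% of its end and had the second lowest count, and Rps27 shared 58.5%. High counts also occurred with a high shared part, as in Rpl35 (96.0% shared, 72463 UMIs), so the count alone does not show how much was lost. Of the genes named most often below, Rpl37 shared 0% of its end, Rpl37a 4.38%, Rps23 12.4%, Rps27l 13.3%, Rps28 25.7%, Rps29 48.6%, Rpl22l1 61.2%, Rpl36al 67.4%, Rps6 83.3% and Rps12 86.3%. Rows of annotated copies held counts too, such as Rps15a-ps6 with 22360 UMIs in the kept cells and Rps19-ps3 with 11830. Rpl35 overlaps Arpc5l and Wdr38 on the opposite strand, Rps28 overlaps Kank3 and Rpl22l1 overlaps Gm33051, and Rpl36al overlaps Gm49383 on its own strand. Whether the counting used strand was not given in the sources used here, so reads of these partners cannot be told apart from those of the members.

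The epithelial classes gave a larger share of their UMIs to ribosomal protein genes than the fibroblast-like and myeloid-like cells did. The share, which is the sum of the 84 genes over all gene UMIs of a fragment's cells of a class, was 16.2% ± 0.897 (SD, n = 16 fragments) in basal-like, 15.7% ± 1.17 (n = 16) in ER+ luminal-like and 17.3% ± 1.23 (n = 14) in ER- luminal-like cells. It was 10.7% ± 0.827 (n = 13) in fibroblast-like and 10.7% ± 1.19 (n = 7) in myeloid-like cells. No fragment's share in fibroblast-like or myeloid-like cells (highest 12.3% and 12.4%) reached the lowest share of any epithelial class (14.1%). Within a fragment, the fibroblast-like share differed from the basal-like share by -5.65 percentage points on average. The ER- luminal-like share was on average 1.41 points above the ER+ luminal-like share, less than the SD of 1.72 points over all locations. That spread joins locations that differed. In TEB every ER- share (16.9% to 18.9%, n = 4) lay above every ER+ share (14.1% to 14.7%, n = 6). The ER- and ER+ shares overlapped in nipple (15.5% to 18.3% against 15.7% to 17.5%) and in duct (15.9% to 20.1% against 15.7% to 17.3%). Single cells of a class overlapped widely between the epithelial classes, with a 10th to 90th percentile of 13.5% to 20.2% in basal-like, 13.1% to 19.1% in ER+ and 14.4% to 21.1% in ER- luminal-like cells, against 8.60% to 13.2% in fibroblast-like cells. As a sum over the chosen genes the share was given no test.

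**Figure D1:**
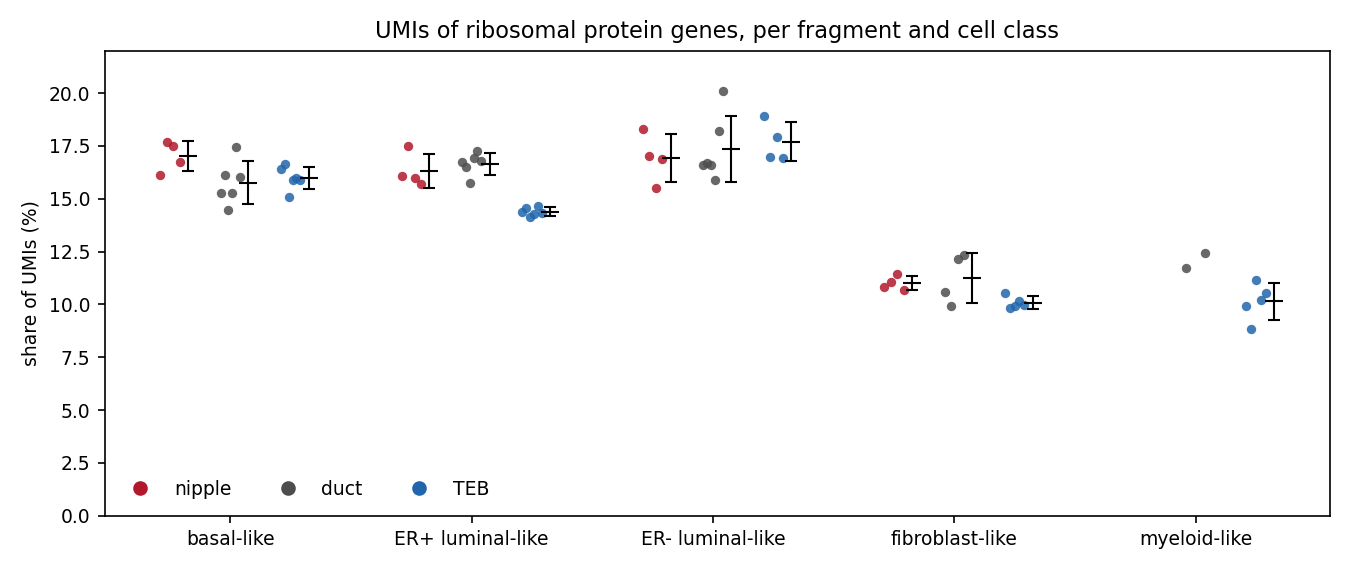
Share of UMIs (%) that fell on the 84 ribosomal protein genes, by cell class and location, with 1 point per fragment and bars for the mean and SD. All epithelial points lie above all fibroblast-like and myeloid-like points, and the 6 TEB points of the ER+ luminal-like cells (14.1% to 14.7%) lie below the nipple and duct points of that class; the share has no library scaling, but per spike-in UMI the order of locations differs in basal-like cells.

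Between locations, the share of TEB fragments lay apart from that of nipple and duct fragments in ER+ luminal-like cells, while the locations overlapped in basal-like and ER- luminal-like cells. In ER+ luminal-like cells the share was 15.7%, 16.0%, 16.1% and 17.5% in the 4 nipple fragments, 15.7% to 17.3% (median 16.8%) in the duct fragments and 14.1% to 14.7% (median 14.3%) in the TEB fragments. The TEB fragments lay below every fragment of nipple and duct, by 1.92 and 2.26 percentage points of the mean. In basal-like cells the nipple fragments had 16.1%, 16.7%, 17.5% and 17.7%, the duct fragments 14.5% to 17.4% (median 15.6%) and the TEB fragments 15.1% to 16.6% (median 15.9%). These ranges overlapped, and the nipple mean was 1.03 points above the TEB mean. In ER- luminal-like cells the shares were 15.5%, 16.9%, 17.0% and 18.3% in nipple, 15.9% to 20.1% in duct and 16.9%, 17.0%, 17.9% and 18.9% in the 4 TEB fragments with enough cells, so that all 3 locations overlapped. The highest duct values of that class, 18.2% and 20.1%, were those of fragments 61 and 62. In fibroblast-like cells the shares ran from 10.7% to 11.4% in nipple, from 9.94% to 12.3% in duct and from 9.82% to 10.5% in TEB. Nipple thus lay above TEB without overlap in this class too, while duct overlapped both. Fibroblast-like cells lay in different clusters by location (1 cluster with 86 nipple and 1 duct cell, another with 1 nipple, 3 duct and 64 TEB cells). In basal-like cells called as G1 from cell cycle genes, the nipple mean was 16.5% ± 1.20 (n = 4) and the TEB mean 16.6% ± 0.588 (n = 4), so the basal difference was -0.14 points there, while in ER+ luminal-like cells called as G1 the TEB mean was still lowest (14.3%, against 16.5% in nipple and 16.8% in duct).

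Set against the spike-in RNA, the 3 locations separated in basal-like cells, with nipple lowest although its mean share was the highest. Ribosomal protein UMIs per spike-in UMI were 11.8, 12.2, 12.4 and 12.9 in the nipple fragments, 16.3 to 20.5 in the duct fragments and 23.1 to 28.6 in the TEB fragments. No 2 locations overlapped. All gene UMIs per spike-in UMI moved likewise, from 72.6 ± 1.88 (SD, n = 4) in nipple over 117 ± 11.4 (n = 6) in duct to 160 ± 14 (n = 6) in TEB, so the nipple cells had fewer gene UMIs in all per spike-in UMI. In ER+ luminal-like cells the ribosomal protein UMIs per spike-in UMI were 23.98 ± 2.65 in nipple, 26.9 ± 2.70 in duct and 20.4 ± 0.975 in TEB, and here the TEB fragments had the lowest mean on both scales. In ER- luminal-like cells they were 13.6 ± 2.32, 21.2 ± 3.85 and 24.04 ± 0.254. In fibroblast-like cells the means of the 3 locations (15.04, 14.7 and 13.8) differed by less than their spread. The ratio assumes that each well held the same amount of spike-in, which was not tested. Levels are given below in counts per 1000000 gene UMIs with each fragment's total scaled by its TMM factor (CPM), so they are relative to the other genes of the same cells, and every difference is on that relative scale unless the spike-in is named. The TMM factors of the location comparisons were set within each class and those of the class comparisons over the 3 epithelial classes, so CPM of one kind are not to be set beside those of the other. Summed levels of marker genes carry no TMM factor. Counts of members that passed with spike-in scaling are given below without the share of all genes that passed. That scaling moves all genes of a fragment together, so such counts alone do not set the members apart from other genes.

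**Figure D2:**
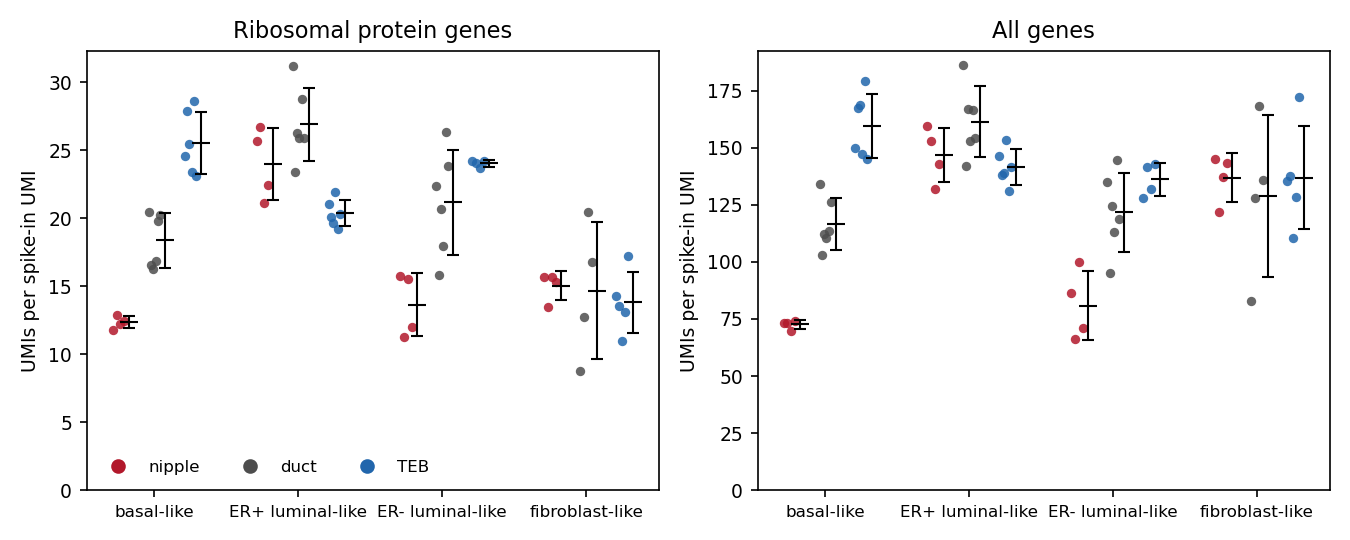
UMIs of the ribosomal protein genes and of all genes per ERCC spike-in UMI, by location in 4 cell classes, with 1 point per fragment and bars for the mean and SD. In basal-like cells both quantities increase from nipple over duct to TEB without overlap, while in ER+ luminal-like cells the ribosomal protein value is lowest in TEB.

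In basal-like cells, 24 of 79 ribosomal protein genes passed the test between nipple and TEB (edgeR quasi-likelihood test with TMM scaling, Benjamini-Hochberg adjusted over all 7316 genes tested), and all 24 were higher in nipple on the relative scale, while with spike-in scaling 78 genes were lower in nipple and none higher. Among all genes 18.8% passed and 9.16% were called higher in nipple, against 30.4% of the members. The median log2 difference was 0.22 over the members and -0.04 over all genes, and 72 of 79 members were positive. With spike-in scaling the medians were -1.10 and -1.35. Small-subunit proteins among the 24 were Rps29, Rps23, Rps24, Rps19, Rps3, Rps14, Rps9, Rps13, Rps15, Rps3a1, Rps27a, Rps15a, Rps20 and Rps16. Those of the large subunit were Rpl37, Rpl13, Rpl32, Rpl23, Rpl36, Rpl24, Rpl19 and Rpl4, and the stalk proteins Rplp1 and Rplp2, which bind translation factors, passed as well. Rplp0, the base of that stalk, did not (0.12, adjusted p = 0.50), nor did Rpsa, a small-subunit protein also known as the laminin receptor (0.10, adjusted p = 0.74).

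Rps29 had the largest difference among them. Its levels were 5685, 6005, 6099 and 6911 CPM in nipple, 4606 to 5303 (median 4990) in duct and 3095 to 4371 (median 3850) in TEB. The 3 locations did not overlap, with nipple highest and TEB lowest. The log2 difference was 0.70 ± 0.10 (SE, adjusted p = 1.4e-06 by edgeR) for nipple over TEB, 0.31 ± 0.10 (adjusted p = 0.046) for nipple over duct and 0.39 ± 0.09 (adjusted p = 0.002) for duct over TEB; with spike-in scaling all 3 turned to -0.63, -0.39 and -0.24. Rpl37, a zinc-binding protein of the large subunit, showed the same order with 4278, 4408, 4549 and 4771 CPM in nipple, 3248 to 4107 in duct and 2613 to 3164 in TEB, again without overlap. Its differences were 0.63 ± 0.09 (adjusted p = 4.8e-06), 0.30 ± 0.09 (adjusted p = 0.045) and 0.33 ± 0.08 (adjusted p = 0.0084), and these also turned negative with spike-in scaling. Rps29 and Rpl37 were the 2 members that passed in all 3 pairs of locations.

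Rpl13 of the large subunit had 4376, 4455, 4931 and 5055 CPM in nipple, 3644 to 4141 in duct and 2723 to 4038 in TEB. Nipple lay above both other locations, while duct and TEB overlapped. The log2 difference was 0.55 ± 0.10 (edgeR, adjusted p = 0.00012) over TEB and did not pass over duct (0.28, adjusted p = 0.097), and it was -0.77 over TEB with spike-in scaling. Rplp1 had 3708, 3726, 4145 and 4406 CPM in nipple and 2321 to 3208 in TEB. Its duct fragments, from 2645 to 4711, spanned both, and the difference between nipple and TEB was 0.52 ± 0.12 (adjusted p = 0.0027; -0.81 with spike-in scaling). Rps23, which sits at the decoding centre, had 3142, 3299, 3402 and 3587 CPM in nipple, above 2504 to 2929 in duct and 2260 to 2615 in TEB. Both its nipple differences passed (0.48 ± 0.09, adjusted p = 0.0003 over TEB, which was -0.84 with spike-in scaling, and 0.30 ± 0.09, adjusted p = 0.049 over duct).

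Fewer members passed between basal-like cells of duct and of the other locations. For nipple over duct 6 of 79 members passed, all higher in nipple (all genes: 6.33% passed and 2.39% were higher), with a member median of 0.10 against -0.03; with spike-in scaling 72 were lower in nipple. They were Rps29, Rpl37, Rps23, Rpl36al, Rps13 and Rpl23. Rpl36al, a copy of Rpl36a with its own locus, had 810, 938, 1026 and 1046 CPM in nipple, 666 to 784 in duct and 641 to 895 in TEB. Nipple lay above duct but overlapped TEB, and the difference from duct was 0.43 ± 0.13 (edgeR, adjusted p = 0.049). Rps13 had 1922, 1979, 2023 and 2045 CPM in nipple, above both duct (1351 to 1711) and TEB (1330 to 1634), with 0.41 ± 0.11 (adjusted p = 0.017) over duct and 0.38 ± 0.11 (adjusted p = 0.012) over TEB. Under spike-in scaling the duct differences of Rpl36al, Rps13 and Rpl23 were -0.28, -0.29 and -0.34.

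For duct over TEB 6 of 79 members passed in basal-like cells, all higher in duct on the relative scale (all genes: 10.5% and 6.57%), while 75 were lower in duct with spike-in scaling. Besides Rps29 and Rpl37 they were Rps19, the protein most often mutated in Diamond-Blackfan anaemia, Rps3a1, Rpl37a and Rpl41. Rps19 had 2856 to 3733 CPM (median 3232) in duct and 2045 to 2787 (median 2542) in TEB, without overlap, and its nipple fragments at 3140, 3216, 3473 and 3681 CPM lay within the duct range. The duct difference was 0.37 ± 0.09 (edgeR, adjusted p = 0.0054; -0.25 with spike-in scaling). Rpl41 had its highest mean in duct, with 3944 to 4664 CPM against 2979, 3163, 3507 and 4100 in nipple and 2780 to 3802 in TEB, a difference of 0.29 ± 0.09 (adjusted p = 0.043) from TEB. In these basal-like cells the 8 fibroblast marker genes summed to 954 to 1898 CPM in nipple, 269 to 466 in duct and 231 to 523 in TEB, the 10 basal markers to 18042 to 20426, 22063 to 28043 and 4542 to 8670, and the lymphoid markers were at 0 in nipple and duct and at most 0.826 in TEB. Of the basal-like cells, 72.2% in nipple, 60.9% in duct and 56.1% in TEB were called as G1, and among these G1 cells 3, 0 and 0 members passed for nipple over TEB, nipple over duct and duct over TEB. Only 4 of the 6 TEB fragments had enough G1 cells for that fit. The part of other cells' RNA and of the differing clusters in the basal differences was not tested. Without nipple fragment 22, 13 members passed between nipple and TEB and 0 between nipple and duct, where leaving out any 1 of 14 of the 16 fragments gave 0 to 3. Without TEB fragment 31 or 33, 3 passed between duct and TEB, and among basal-like cells of 15000 to 40000 UMIs 2, 0 and 0 passed in the 3 pairs. The shares of all genes that passed in these smaller sets are not given here, so the lower counts alone do not set the members apart from other genes.

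**Figure D3:**
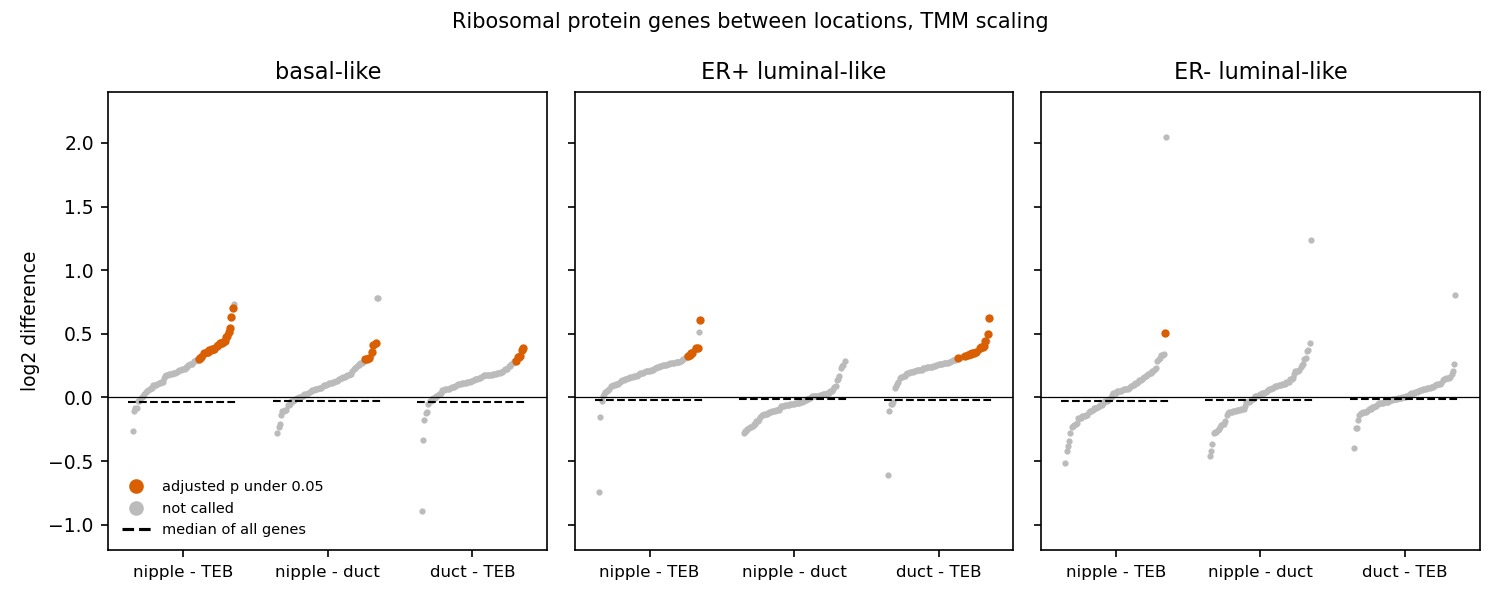
Log2 difference of every tested ribosomal protein gene between pairs of locations in basal-like, ER+ and ER- luminal-like cells (edgeR, TMM scaling), with genes of adjusted p under 0.05 in orange and the median of all genes as a dashed line. In basal-like cells 24, 6 and 6 of 79 genes passed, and in ER+ luminal-like cells 7, 0 and 15; the basal and ER- luminal-like directions turn with spike-in scaling.

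In ER+ luminal-like cells members passed between duct and TEB (15 by edgeR, 20 by DESeq2) and between nipple and TEB (7 and 16). For duct over TEB 15 of 79 members passed, all higher in duct (all 8784 genes: 1.71% passed and 1.13% were higher). With spike-in scaling 50 passed, all in the same direction, while the mean of all gene UMIs per spike-in UMI was also higher in duct, 161.5 ± 15.4 (SD, n = 6) against 141.6 ± 7.74 (n = 6). With TMM scaling the median log2 difference was 0.26 over members and -0.02 over all genes. Of the 79 members, 74 were positive and 64 had an unadjusted p under 0.05, as did 895 of all 8784 genes. Rps6, the small-subunit protein that S6 kinases phosphorylate, had 683 to 1250 CPM (median 1097) in duct and 499 to 864 (median 671) in TEB. The ranges touched only through duct fragments 61 and 62 (753 and 683 CPM), the other duct fragments holding 1041 to 1250. The difference was 0.62 ± 0.15 (edgeR, adjusted p = 0.017), and the nipple fragments had 843, 882, 1008 and 1059 CPM. Rpl35 had 1415 to 2292 CPM in duct and 1146 to 1393 in TEB, without overlap, a difference of 0.50 ± 0.11 (adjusted p = 0.0094). Rpl5, which carries the 5S ribosomal RNA together with Rpl11 and can bind Mdm2, had 965 to 1107 CPM in duct, above 673 to 918 in TEB, a difference of 0.44 ± 0.10 (adjusted p = 0.015). Rpl37a had 2140 to 2685 CPM in duct, 2080, 2124, 2124 and 2285 in nipple and 1615 to 1960 in TEB, so that TEB lay below both, by 0.40 ± 0.08 (adjusted p = 0.0059) from duct. The other members that passed were Rpl3, Rpl4, Rpl6, Rpl41, Rps18, Rplp0, Rps2, Rps4x, Rps28, Rps9 and Rpl10, with differences of 0.31 to 0.40.

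For nipple over TEB in ER+ luminal-like cells 7 of 79 members passed, all higher in nipple (all genes: 5.61% and 2.64%), and 6 did with spike-in scaling, again all higher in nipple. The median was 0.21 over members and -0.02 over all genes. Rps12, a small-subunit protein, had 1068, 1238, 1357 and 1468 CPM in nipple and 663 to 1033 in TEB, without overlap. Duct ran from 851 to 1539, which spanned the nipple values and overlapped those of TEB. The difference of nipple over TEB was 0.61 ± 0.15 (edgeR, adjusted p = 0.011). Rps25, which some viral internal ribosome entry sites need, had 1440, 1445, 1508 and 1667 CPM in nipple, above 1033 to 1255 in TEB, a difference of 0.39 ± 0.10 (adjusted p = 0.014). Rps4x, an X-linked small-subunit protein, had 1845, 1868, 1912 and 2147 CPM in nipple, above 1331 to 1747 in TEB (0.39 ± 0.10, adjusted p = 0.015), and its duct fragments also passed over TEB (0.34, adjusted p = 0.042). Rplp1, Rpl39, Rpl11 and Rpl23 passed with 0.33 to 0.35. Rplp1 and Rpl23 were the 2 members that passed for nipple over TEB in both basal-like and ER+ luminal-like cells; with spike-in scaling the basal differences turned. Between nipple and duct 0 members passed by edgeR and 0 by DESeq2, with 10 at an unadjusted p under 0.05 (all genes: 1.98% passed the adjusted test and 1221 of 8784 had an unadjusted p under 0.05), and the median was -0.05. Without nipple fragment 22 only 1 member passed between nipple and TEB and 23 passed between duct and TEB, and without nipple fragment 23 or 24 or TEB fragment 31 or 33 the nipple count was 3 or 4. The ER+ cells lay mainly in 2 clusters, of 16 nipple, 105 duct and 118 TEB cells (median 27007 UMIs) and of 27, 107 and 56 cells (median 48607 UMIs). The 8 fibroblast markers summed to 1050 to 2425 CPM in nipple, 295 to 738 in duct and 189 to 420 in TEB in this class, and their part in the nipple differences was not tested.

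In ER- luminal-like cells 1 of 79 members passed between nipple and TEB (all 5706 genes: 4.57% passed and 2.98% were higher in nipple). It was Rps29, with 4811, 6239, 6651 and 6896 CPM in nipple, 4318 to 5418 in duct and 3700, 3850, 4356 and 5408 in TEB. Nipple and TEB overlapped through the lowest nipple fragment, and the difference was 0.51 ± 0.14 (edgeR, adjusted p = 0.03), or -0.39 with spike-in scaling. No member passed without nipple fragment 22 or 24 or TEB fragment 33 or 42. Between nipple and duct 0 members passed by edgeR and 1 by DESeq2, with 6 of 79 at an unadjusted p under 0.05 (all genes: 1.63% passed the adjusted test and 625 of 5706 had an unadjusted p under 0.05), and between duct and TEB 0 passed by either tool, with 0 at an unadjusted p under 0.05 (all genes: 1.14% and 550 of 5706). With 48 nipple, 81 duct and 49 TEB cells, this class had the fewest cells of the epithelial classes, and its members' median difference of nipple over TEB was 0.04. In fibroblast-like cells 0 of 80 members passed in any pair by edgeR, with 6, 1 and 11 at an unadjusted p under 0.05 for nipple over TEB, nipple over duct and duct over TEB (all genes: 1.54%, 0.200% and 0.271% passed the adjusted test, and 852, 889 and 944 of 8489 had an unadjusted p under 0.05). For nipple over TEB 76 of those 80 were positive with a median of 0.21, against -0.02 over all genes.

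Members that left the common pattern were found by testing each gene against the members' own sum in each fragment, a ratio that no library scaling changes. In basal-like cells 7 of 79 members varied across the 3 locations relative to the rest (all genes against that sum: 21.9%). Rps29 and Rpl37 stood above the common change from nipple to TEB, by 0.43 ± 0.09 (edgeR, adjusted p = 0.00049) and 0.36 ± 0.08 (adjusted p = 0.0016) on the log2 scale. Rpl22l1, the copy of Rpl22, went the other way: it made up 0.458% to 0.662% of ribosomal protein UMIs in nipple, 0.481% to 0.668% in duct and 0.718% to 0.943% in TEB, which overlapped neither. Relative to the members it was lower in nipple than in TEB by a log2 difference of -0.54 ± 0.13 (adjusted p = 0.0035) and lower in duct by -0.48 ± 0.12 (adjusted p = 0.0051). Rpl41 made up 1.91% ± 0.22 in nipple, 2.55% ± 0.21 in duct and 2.31% ± 0.20 in TEB (SD), and was lower in nipple than in duct by -0.41 ± 0.09 (adjusted p = 0.0042). Rpl37a differed likewise between nipple and duct (-0.34 ± 0.10, adjusted p = 0.026), and Rpl3, near the peptidyl transferase centre, and Rps2 were lower in nipple than in TEB relative to the members (-0.36, adjusted p = 0.021, and -0.26, adjusted p = 0.031).

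In ER+ luminal-like cells 2 of 79 members varied relative to the rest (all genes: 8.04%), Rps27l and Rps4y2. Rps27l, the copy of Rps27 that p53 induces, made up 0.915% ± 0.053 of member UMIs in nipple, 0.899% ± 0.19 in duct and 1.17% ± 0.11 in TEB, and was lower in duct than in TEB by -0.38 ± 0.10 (edgeR, adjusted p = 0.033). Rps4y2, a copy of Rps4x, had only 30 to 139 CPM and was lower in duct by -0.87 ± 0.26 (adjusted p = 0.049). In ER- luminal-like cells 2 members varied (all genes: 3.79%), Rps28 and Rps29. Rps28 had 1852, 1971, 2139 and 2155 CPM in nipple, 2623 to 3156 in duct and 2240, 2364, 2427 and 2818 in TEB, so that nipple lay below both. Its part of the member UMIs was 1.15% ± 0.12 in nipple against 1.62% ± 0.15 in duct, a log2 difference of -0.50 ± 0.12 (adjusted p = 0.026), while its difference in CPM did not pass (-0.46, adjusted p = 0.059). Rps29 was again above the members in nipple over TEB, by 0.45 ± 0.12 (adjusted p = 0.022). In fibroblast-like cells 0 of 80 members left the pattern by this test (all genes: 1.98%). Without duct fragments 61 and 62, an alternative chosen after seeing the data, 8 members varied in ER+ luminal-like cells, while 0 did without TEB fragment 33 or 42 and 1 without duct fragment 32 or TEB fragment 43. Without nipple fragment 22 or 24, 4 members varied in basal-like cells. In ER- luminal-like cells 0 varied without nipple fragment 21, 22 or 24, duct fragment 31 or 32 or TEB fragment 33 or 42, and 1 without duct fragment 51 or 52 or TEB fragment 34. Among cells of 15000 to 40000 UMIs the calls of Rps29 and Rpl37 in basal-like cells had an adjusted p of 0.052 and 0.056 and that of Rps27l one of 0.73.

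**Figure D4:**
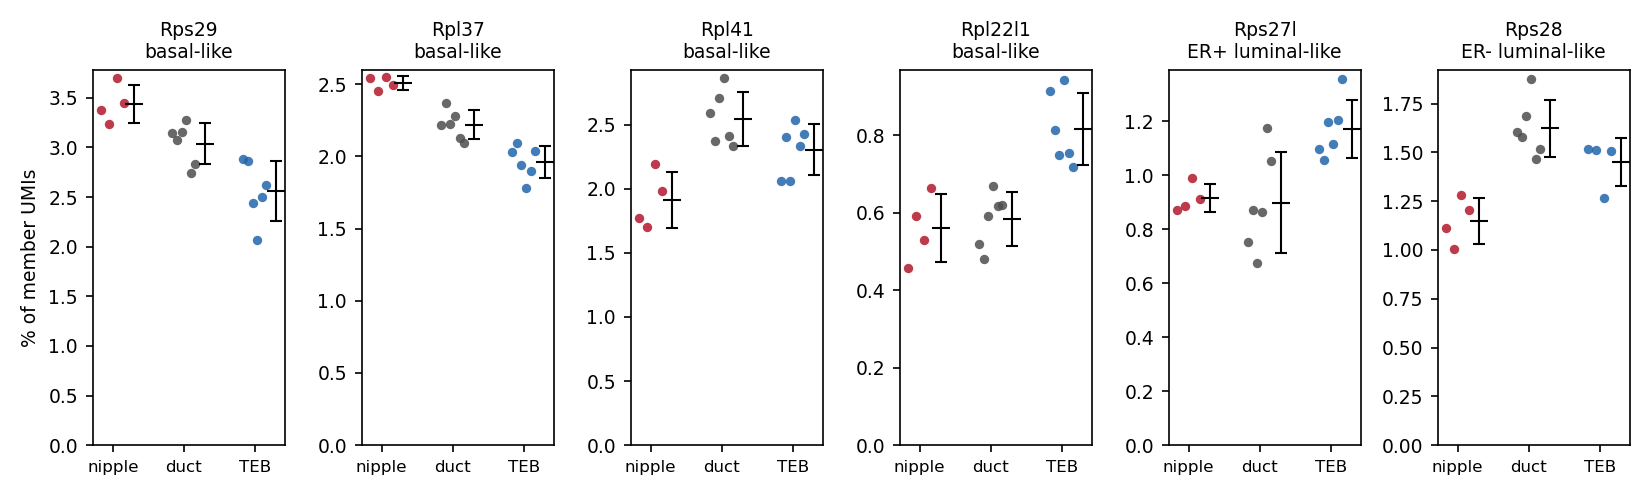
Part of all ribosomal protein UMIs (%) held by 6 genes, by location, with 1 point per fragment and bars for the mean and SD: Rps29, Rpl37, Rpl41 and Rpl22l1 in basal-like cells, Rps27l in ER+ and Rps28 in ER- luminal-like cells. Rpl22l1 lies higher in all TEB fragments (0.718% to 0.943%) than in all nipple and duct fragments, and Rps28 lies lowest in nipple; these parts need no library scaling.

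Between ER+ luminal-like and basal-like cells, the genes of the largest differences were copies of ribosomal protein genes and the non-ribosomal genes that the symbol rule takes in. In 14 fragments with enough cells of all 3 classes, compared within fragments, 27 of 79 members passed between ER+ luminal-like and basal-like cells, 12 higher and 15 lower in ER+ cells (all 6826 genes: 45.1% passed, 23.5% higher and 21.6% lower). The median difference was 0.02 over members and 0.00 over all genes. The split depended on the settings: with spike-in scaling 60 members were higher in ER+ cells and none lower, with TMM factors set without the members 22 were higher and 10 lower, and without a filter on low counts 23 and 1. It was 18 and 13 among cells of at least 10000 UMIs, 17 and 1 among cells of 15000 to 40000 UMIs, 11 and 22 with cells thinned to 5000 UMIs and 11 and 29 with classes from marker lists. Among the members higher in ER+ cells Rpl36al had the largest difference, with 789 ± 130 CPM (SD, n = 14) in basal-like, 1183 ± 145 in ER+ and 886 ± 158 in ER- luminal-like cells, a log2 difference of 0.59 ± 0.07 (edgeR, adjusted p = 6.9e-10) for ER+ over basal-like cells. Its partner Rpl36a showed 1421 ± 175 and 1461 ± 172 CPM in those classes (0.04, adjusted p = 0.65). Rps27l had 1042 ± 136, 1554 ± 267 and 1275 ± 255 CPM, with 0.57 ± 0.09 (adjusted p = 8.7e-07) for ER+ over basal-like cells. Rpl11, Rps28 and Rpl39 followed with 0.35, 0.35 and 0.34.

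Lower in ER+ than in basal-like cells were both genes that are not ribosome components. Rps19bp1 had 166 ± 94.1 CPM in basal-like and 97.3 ± 49.5 in ER+ cells (log2 difference -0.74 ± 0.23, edgeR, adjusted p = 0.007), and Rpl7l1 had 131 ± 23.1 and 81.9 ± 15.4 (-0.67 ± 0.18, adjusted p = 0.0021). These 2 genes were detected in 50.9% and 63.1% of the kept cells. Of ribosome components, Rps12 (1376 ± 389 against 1066 ± 281 CPM, -0.36 ± 0.08, adjusted p = 0.00036), Rpl7 (-0.30, adjusted p = 7.6e-05) and Rps29 (-0.26, adjusted p = 0.00043) had the largest decreases, and these 3 turned to 0.08, 0.12 and 0.16 with spike-in scaling. Without a filter on low counts Rps12, Rpl7, Rps29 and Rpl7l1 did not pass.

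For ER- luminal-like over basal-like cells 24 of 79 members passed, all higher in ER- cells (all genes: 30.0% passed and 14.6% were higher), with a member median of 0.12 against -0.02; with spike-in scaling 1 passed, also higher. Rpl17 and Rpl23a, both at the exit of the peptide tunnel, had 0.39 (edgeR, adjusted p = 5.8e-07) and 0.36 (adjusted p = 2.4e-05), Rpl14 had 0.29 (adjusted p = 0.00014) and Rps27l 0.29 (adjusted p = 0.012). For ER- over ER+ luminal-like cells 39 of 79 members passed, 31 higher and 8 lower in ER- cells (all genes: 28.9% passed, 13.4% higher and 15.5% lower), while with spike-in scaling 46 passed and all were lower in ER- cells. Of those that passed, 10 were higher and 8 lower over at least 10 cells per fragment, 10 and 10 without a filter on low counts, and 5 and 6 among cells of 15000 to 40000 UMIs. Rpl22l1 had 1197 ± 169 CPM in ER-, 872 ± 188 in ER+ and 1028 ± 187 in basal-like cells, a difference of 0.45 ± 0.10 (adjusted p = 0.0006) that was -0.03 with spike-in scaling. Rps19bp1 (0.88 ± 0.23, adjusted p = 0.0024) and Rpl7l1 (0.61, adjusted p = 0.0086) were higher in ER- cells as well. Lower in ER- than in ER+ cells were Rpl36al (-0.43, adjusted p = 2.1e-06), Rpl27 (-0.32, adjusted p = 4.8e-05), Rps27l (-0.28, adjusted p = 0.013), Rpl29 (-0.28, adjusted p = 0.0075) and Rps28 (-0.27, adjusted p = 0.00049). In ER- luminal-like cells the 10 basal markers summed to 1736 to 3332 CPM in nipple, 274 to 784 in duct and 57.8 to 190 in TEB, and their part in the class differences was not tested. Leaving out duct fragment 52 gave 38 members in place of 24 for ER- over basal-like cells.

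**Figure D5:**
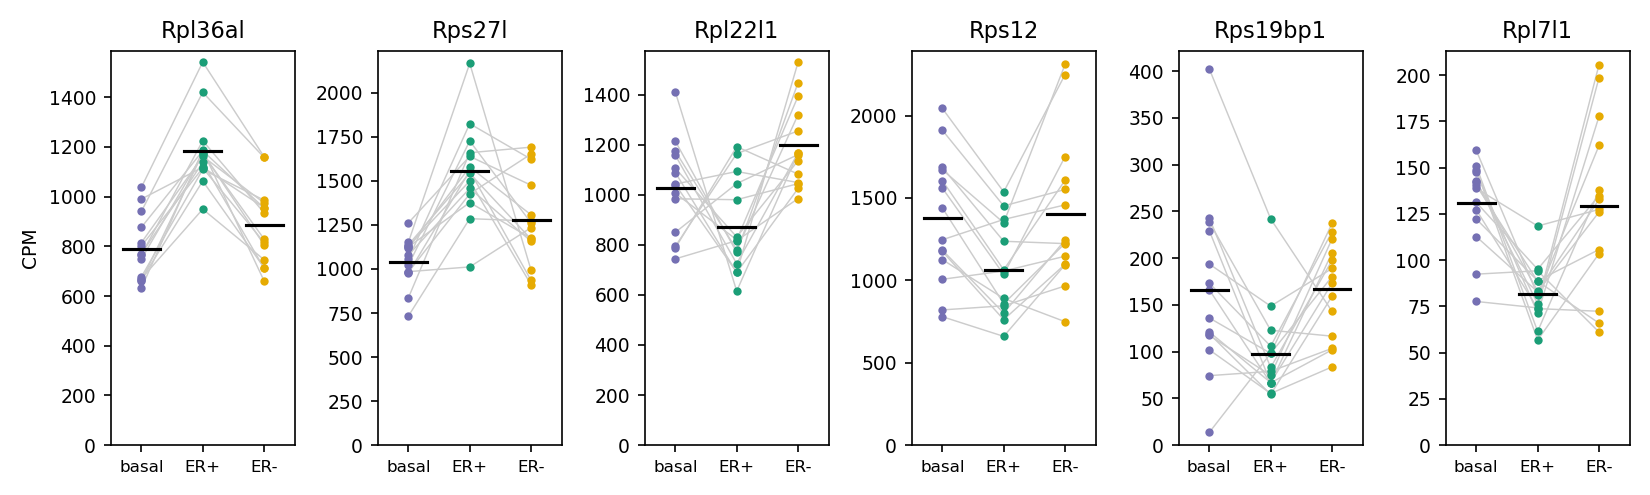
CPM of 6 ribosomal protein family genes in basal-like, ER+ and ER- luminal-like cells of 14 fragments, with grey lines joining the values of a fragment and a bar for the mean. Rpl36al and Rps27l have their highest means in ER+ cells (1183 and 1554 CPM), and Rpl22l1, Rps12, Rps19bp1 and Rpl7l1 their lowest. For Rpl22l1 the difference of ER+ from basal-like cells did not pass (-0.24, edgeR, adjusted p = 0.059). With spike-in scaling the lower levels of Rps12 than in basal-like cells and of Rpl22l1 than in ER- cells are no longer seen.

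Genes that build or drive ribosomes were compared from fixed lists. Of 41 ribosome biogenesis factors tested in basal-like cells, 17 were higher and 0 lower in nipple than in TEB with TMM scaling, at a median of 0.81 (all genes: 9.16% higher and 703 of 7316 lower). Among them were Nolc1 and Ddx21, nucleolar factors of ribosomal RNA synthesis and processing, with 1.77 (edgeR, adjusted p = 2e-06) and 1.68 (adjusted p = 6e-06), and Wdr43, another nucleolar processing factor, with 1.56 (adjusted p = 1.2e-05). Against duct 7 were higher in nipple (all genes: 2.39%), and 5 were higher in duct than in TEB (all genes: 6.57%). Of 76 mitochondrial ribosomal proteins 0 were higher and 8 lower in nipple than in TEB, with Mrpl42 at -1.67 (edgeR, adjusted p = 0.00083). The count of lower ones was near the share of all genes (703 of 7316), while their median was -0.44 against -0.04 over all genes. With TMM scaling the cytosolic and mitochondrial ribosomal proteins thus had medians of opposite sign in that pair, 0.22 and -0.44. With spike-in scaling the cytosolic median was negative as well, and the mitochondrial one was not computed. Of 31 translation factors and other TOP mRNAs, 6 were higher and 0 lower in nipple than in TEB basal-like cells (all genes: 9.16% higher). Those with the smallest p by edgeR were Eif2s2 (1.11, adjusted p = 7.5e-07), Eif4ebp1 (1.69, adjusted p = 2.3e-06), Eif3c (1.05) and Tpt1 (0.75). Fau, which encodes the ribosomal protein Rps30 as a fusion with a ubiquitin-like protein and is not taken in by the symbol rule, was higher in nipple (0.61, edgeR, adjusted p = 5e-05). Of 16 tested genes of RNA polymerase I and its activators, 1 was higher and 2 lower in nipple than in TEB in basal-like cells. With 9.16% of all genes higher and 703 of 7316 lower, these counts do not set the list apart. The higher one was Myc, whose protein activates ribosomal genes (1.35, edgeR, adjusted p = 0.00063), and the lower ones were Mycn (adjusted p = 0.0036) and Taf1b (adjusted p = 0.0011), for which no fold is given. Of 11 tested in ER- luminal-like cells 1 was higher in that pair, again Myc (1.77, adjusted p = 0.004), against 2.98% of all genes.

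In ER+ luminal-like cells, 15 of 79 cytosolic members passed between duct and TEB, where 1.71% of all genes did. Of 41 biogenesis factors and 76 mitochondrial ribosomal proteins 0 passed, but so few of all genes passed that these counts do not set either list apart. Their medians were 0.14 and -0.11, against 0.26 over the members and -0.02 over all genes. Of the 31 translation factors and TOP mRNAs 4 were higher in duct there, against 1.13% of all genes: Eef1g (0.67, edgeR, adjusted p = 0.00074), Eef1a1 (0.41) and Eef2 (0.40), which elongate the peptide chain, and Pabpc1 (0.55), which binds the poly(A) tail. Between classes, 3 of 41 biogenesis factors were higher and 18 lower in ER+ than in basal-like cells, at a median of -0.65, with Nop58 at -1.65 (adjusted p = 2.3e-11), while 29 of 75 mitochondrial ribosomal proteins were higher and 2 lower, at a median of 0.48 (all genes: 23.5% higher and 21.6% lower). Spike-in scaling was not applied to these list counts, and it shifted the median of all genes by -1.35 against -0.04 between nipple and TEB in basal-like cells and by 0.41 against 0.00 between ER+ and basal-like cells.

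Few single members passed a test of whether the change with location differed between classes, in a fit with TMM scaling, but many differed in the same direction. For duct over TEB 76 of 79 members were below 0 for ER- minus ER+ cells, at a median of -0.22. For nipple over TEB 7 of 80 were below 0 for basal-like minus ER- cells, at a median of 0.27, and 36 of 79 for basal-like minus ER+ cells, at a median of 0.02. Signs and medians over all genes were not computed for these terms. The members of a fragment also share its cells and its TMM factor, so their signs are not separate results. For nipple over TEB, 5 of 79 members changed differently in the basal-like than in the ER+ class (all genes: 6.30%), namely Rps29, Rps19, Rpl13, Rpl32 and Rpl37, each with the larger difference in basal-like cells by 0.36 to 0.51. For nipple over duct 1 did, Rpl13 (all genes: 1.45%). For duct over TEB 2 did (all genes: 3.29%), Rpl22l1 and Rpl35, both with the lower value in basal-like cells. Of 80 members tested, 1 differed between the basal-like and the ER- class for nipple over TEB (all genes: 2.08%), Rps28. Between the luminal classes 1 did (all genes: 2.27%), Rps10. For nipple over duct and duct over TEB 0 members passed in either comparison with ER- cells by edgeR, the only tool run for these terms. Between the basal-like and ER- classes 3 and 11 of 80 members had an unadjusted p under 0.05, against 810 and 695 of all 7944 genes (1.17% and 1.15% passed the adjusted test). Between the luminal classes 7 and 24 of 79 did, against 766 and 556 of all 8626 genes (0.522% and 0.383% passed).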

How the data were processed

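Single cells of 16 mammary fragments (4 nipple, 6 duct, 6 TEB) were sequenced from their 3′ ends with unique molecular identifiers (UMIs). The deposited table holds raw UMI counts per gene and cell. Per the study's methods and the submitters' processing notes, the authors trimmed the reads with Trim Galore, checked them with FastQC, read cell barcodes and UMIs out of the first mate by UMI-tools, aligned the second mate to mm10 with STAR keeping reads of a single alignment, assigned them with featureCounts and counted UMIs with UMI-tools. The tool versions were not given in the sources used here. Reads that fit a gene and its processed copies equally well were therefore dropped, which lowers the counts of members with near-identical copies. The table names every cell by its fragment, and no column was left without a sample (0 columns). Rpl26 is not analysed here.

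Cells with at most 5% spike-in UMIs, 5000 to 120000 UMIs and 200 to 6000 genes were kept. The deposited cells held a median of 29384 UMIs, spike-ins included. Clusters were built in Seurat 5.3.0 (R 4.3.3) from 2000 variable genes without the members, 14 principal components and a resolution of 0.5, and were named from marker genes. As in the study's methods, the spike-in share, cell cycle scores and gene number were regressed out before clustering. Cell cycle phase came from the lists that Seurat holds. UMI counts were summed per fragment and class over at least 5 cells, and tested with the quasi-likelihood test of edgeR 4.0.16 (TMM factors, filterByExpr, Benjamini-Hochberg adjustment over all genes tested, threshold 0.05) in 1 fit per class over the 3 locations. Classes were compared in 1 fit with the fragment as a block over the 14 fragments with all 3 epithelial classes. Members off the common pattern were tested with the summed member UMIs as library size. CPM are edgeR's counts per 1000000 gene UMIs, spike-ins left out, with each library size scaled by the TMM factor of its own fit, so the location and class fits give CPM on different scales. Summed marker levels have no TMM factor. DESeq2 1.42.0, other scalings, cell filters, class definitions and fits, thinning of each cell to 5000 UMIs and leaving out each fragment were the alternatives. The scripts were tested on simulated data. Cell classes are rebuilt, so they may differ from those of the study.

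The members and lists were chosen with earlier results of these data known. The genes named are the copies that the symbol rule takes in with their parent genes, up to 5 passing members per direction with the largest difference in each comparison, up to 5 with the smallest p relative to the member sum in each class, the 5 with the most UMIs, those with under 50 UMIs, and up to 4 passing genes of each other list per class. Other members named, such as Rplp0, Rpsa, Rps27 and Rpl34, were added after their values were seen. Sequences came from RefSeq promoter windows (GRCm38.p6) and shared 3′ ends from the mouse transcripts given with the GENCODE M21 annotation.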

Additional observations from a re-analysis of the deposited data

Results flagged for a closer look

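Among the named members and the member shares of the classes, 3 of 93 groups of 4 to 6 fragments held a fragment far from the others by Dixon's criterion, where chance gives about 1 in 20 groups, or 4.65 here. They were Rps13 in basal-like cells of TEB fragment 34 (1330 CPM), Rpl23 in basal-like cells of TEB fragment 33 (1833 CPM) and Rpl3 in ER+ luminal-like cells of duct fragment 61 (1843 CPM).

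The log2 difference between locations differed between classes for 10 member tests (edgeR interaction term, TMM scaling, Benjamini-Hochberg adjusted over all genes). For nipple over TEB it was larger in basal-like than in ER+ luminal-like cells by 0.51 for Rps29 (adjusted p = 0.00066), 0.43 for Rps19 (adjusted p = 0.0071), 0.42 for Rpl13 (adjusted p = 0.0032), 0.37 for Rpl32 (adjusted p = 0.019) and 0.36 for Rpl37 (adjusted p = 0.026), that is for 5 of 79 members, against 6.30% of all genes. For nipple over duct it was larger in basal-like cells by 0.38 for Rpl13 (adjusted p = 0.030), 1 of 79 members against 1.45% of all genes. For duct over TEB the basal-like minus ER+ value was -0.72 for Rpl22l1 (adjusted p = 0.028) and -0.41 for Rpl35 (adjusted p = 0.033), 2 of 79 members against 3.29% of all genes. For nipple over TEB the basal-like minus ER- value was 0.57 for Rps28 (adjusted p = 0.038), 1 of 80 members against 2.08% of all genes, and the ER- minus ER+ value was -0.64 for Rps10 (adjusted p = 0.028), 1 of 79 members against 2.27%. These terms were fitted with TMM scaling only.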

How the results depend on the processing

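The counts below are of members that passed, for nipple over TEB, nipple over duct and duct over TEB (main values: basal-like 24, 6 and 6, ER+ luminal-like 7, 0 and 15, ER- luminal-like 1, 0 and 0, off the common pattern 7, 2 and 2 in these classes), and only those that moved by over 1.5 times are given; the cause was not tested. These counts are given without the share of all genes that passed under the same setting, so a lower or higher count alone does not set the members apart. TMM factors without the members, and clustering with the members, moved none by that much. Only 1 member was among the 2000 variable genes, so clustering with the members could hardly change the classes and says little about them. RLE factors gave basal 1 for nipple over duct and ER+ 13 for nipple over TEB. Spike-in scaling gave basal 78, 72 and 75 (all lower in the first-named location), ER+ 1 for nipple over duct (lower) and 50 for duct over TEB (higher), ER- 73 and 50 (lower) for the nipple pairs, and 60 for ER+ over basal (main 27) and 1 for ER- over basal (main 24). It reversed 22 results of a named gene in a comparison, with some genes in several: in basal-like cells for nipple over TEB Rps29 -0.63, Rpl37 -0.69, Rpl13 -0.77, Rplp1 -0.81 and Rps23 -0.84, for nipple over duct Rpl36al -0.28, Rps13 -0.29, Rpl23 -0.34, Rps29 -0.39 and Rpl37 -0.39, for duct over TEB Rps29 -0.24, Rps19 -0.25, Rpl37 -0.30, Rps3a1 -0.31 and Rpl37a -0.32, in ER- cells Rps29 -0.39, for ER+ over basal Rps12 0.081, Rpl7 0.12 and Rps29 0.16, and for ER- over ER+ Rpl22l1 -0.030, Rps20 -0.064 and Rpl23a -0.075. Marker-based classes gave ER+ 13 and ER- 5 for nipple over TEB and 0 off the pattern in ER-. At least 10000 UMIs per cell gave basal 1 and ER- 1 for nipple over duct and 1 off the pattern in each luminal class. At least 10 cells gave basal 3 for duct over TEB, ER+ 1 for nipple over TEB and 23 for duct over TEB, ER- 0 for nipple over TEB and 0 off the pattern, 5 for ER- over basal and 18 for ER- over ER+ (10 higher and 8 lower, main 39 with 31 and 8), and fibroblast-like share differences of -1.24 (nipple over duct, main -0.26) and 2.12 points (duct over TEB, main 1.17). Thinning gave basal 12, 2 and 2, ER+ 4 for nipple over TEB, 23 for duct over TEB and 0 off the pattern, and ER- 2 and 1 for the nipple pairs. No filter gave basal 3 for nipple over duct and 3 for duct over TEB, ER+ 2 for nipple over TEB, ER- 1 for nipple over duct and 0 off the pattern, 15 for ER- over basal and 20 for ER- over ER+ (10 higher and 10 lower). DESeq2 gave ER+ 16 for nipple over TEB, ER- 1 for nipple over duct and 1 off the pattern, and fits over only the locations compared gave ER+ 25 for duct over TEB and ER- 0 for nipple over TEB. Of alternatives added after seeing the data, cells of 15000 to 40000 UMIs gave basal 2, 0 and 0 and 2 off the pattern, ER+ 0 for nipple over TEB, 8 for duct over TEB and 0 off the pattern, ER- 0 for nipple over TEB and 0 off the pattern, 12 for ER- over basal and 11 for ER- over ER+ (5 higher and 6 lower), ER+ shares of 2.71 points for duct over TEB (main 2.26), fibroblast-like shares of 0.527 (main 0.91), -3.08 and 3.61 points in the 3 pairs, and reversed Rpl39 in ER+ nipple over TEB (-0.037) and Rps27l in ER- over basal (-0.10). Cells called G1 gave basal 3, 0 and 0 and 3 off the pattern, ER+ 9 for duct over TEB and 0 off the pattern, and a basal share difference of -0.138 points (main 1.03). Without duct fragments 61 and 62 ER+ gave 13 for nipple over TEB and 8 off the pattern, and the fibroblast-like share differences with duct became 0.726 and 0.182 points. Leaving out 1 fragment gave, for nipple over TEB, nipple over duct and duct over TEB, basal 13 to 28, 0 to 9 and 3 to 7, ER+ 1 to 9 and 10 to 23 (first and last pair), ER- 0 to 2 and 0 to 1 (nipple pairs), off the pattern 4 to 10, 0 to 3 and 0 to 2, and 18 to 38 for ER- over basal. The replicate block on numbers 31 and 32, which duct and TEB fragments share, gave basal 1 (lower in duct) and ER+ 8 for duct over TEB. Deviations from the location mean had correlations between fragments of the same number of 0.0019 and -0.0060 in basal-like and -0.015 and -0.0076 in ER+ cells. In ER- cells the correlation was 0.044 for number 32. Taken over all genes tested in single fragments, these values cannot show whether fragments of the same number share a mouse. The share without mitochondrially encoded genes was not run, since the table analysed holds no such row. The ER- class held 48 nipple, 81 duct and 49 TEB cells, the fewest of the epithelial classes.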

Other observations

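Duct fragments 61 and 62 stood apart from the other 4 duct fragments in several members of ER+ luminal-like cells, where their median cells held 49908 and 44175 UMIs against 22462.5 to 33615. Rps6 had 753 and 683 CPM in them against 1041 to 1250, Rpl35 had 1442 and 1415 against 1843 to 2292, and Rpl22l1 had 726 and 687 against 1053 to 1182. Rps12 had 1539 and 1344 CPM against 851 to 1051, and Rps27l had 2169 and 1817 against 1020 to 1509. The labels give both the same location and strain as the other duct fragments, and no test was made because the fragments were set apart after their values were seen.

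Among p53 target genes, a list that includes Rps27l, 4 of 10 tested were higher and 0 lower in nipple than in TEB in ER- luminal-like cells with TMM scaling, among them Plk2 (1.40), Cdkn1a (1.33) and Perp (1.21). In basal-like cells 0 were higher and 1, Perp, lower (-0.37) in the same pair. In ER+ luminal-like cells 2 of 14 were higher, Perp (0.77) and Mdm2 (0.98), and 1 lower, Plk2 (-0.74), where 2.64% of all genes were higher. Rps27l passed in none of these comparisons. Of all genes 2.98% were higher in nipple in that ER- comparison, and spike-in scaling, which made 73 members lower in nipple there, was not applied to this list.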
